A study of Mus musculus with 6 samples.

Results

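The 3 orosomucoid genes (Orm1, Orm2, Orm3) and the 5 genes that encode the chains of the inter-alpha-trypsin inhibitor family (Itih1, Itih2, Itih3, Itih4 and Ambp) were followed in the liver of mice given a single large dose of ethanol. The 8 members were taken from the deposited liver table by gene name, 8 of 28880 genes, and all 8 were among the 16717 genes that passed the filter on low counts. They were chosen with their ethanol against control values known, and Orm1, Orm2 and Itih3 also belong to a signature that the study picked partly on these libraries. Their differences between the groups are therefore a description, given with standard errors and without p-values, and whether a member passed the thresholds for a call is stated only to set it beside all genes and supports nothing. Bulk RNA sequencing (total RNA, paired reads of 150 bases) covered 3 ethanol-exposed and 3 control livers, 1 mouse per library. All mice were wild type male C57BL/6J of 6 to 8 weeks, labelled as a single batch. The ethanol mice were fasted for 12 h, received 50% ethanol at 6 g/kg by mouth and were sampled 24 h later. Controls were kept without ethanol. Whether they were also fasted or gavaged is not given in the sources used here, so ethanol, fasting and gavage cannot be told apart.

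Orosomucoids, also called alpha-1-acid glycoproteins, are small, heavily N-glycosylated lipocalins that hepatocytes secrete into plasma, where they bind basic and lipophilic compounds. They are classical acute-phase proteins, whose genes respond to interleukins, glucocorticoids and C/EBP factors. Ambp encodes a precursor that is cut into alpha-1-microglobulin, a heme-binding lipocalin, and bikunin, a serine protease inhibitor that carries a chondroitin sulfate chain. The heavy chains encoded by Itih1, Itih2 and Itih3 are joined covalently to that sugar chain in hepatocytes and can be moved from it onto hyaluronan in the extracellular matrix, whereas the Itih4 protein circulates without bikunin.

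The libraries held 60514417 to 74210869 counts, of which the 8 members took 0.819% to 1.44% in the ethanol group and 0.639% to 0.679% in the control group. Genes were called at an adjusted p below 0.05 and a log2 fold change beyond 1, the thresholds of the study, by the quasi-likelihood test of edgeR (p adjusted by Benjamini-Hochberg). With TMM scaling, which corrects for library composition, 1738 genes were called higher in ethanol livers (10.4% of those tested), 2301 lower (13.8%) and 4039 either way (24.2%). The TMM factors were 0.768 to 0.836 in ethanol and 1.26 to 1.27 in control libraries. With library size alone the split was 846 higher against 5385 lower, and the median log2 fold change of all tested genes moved from -0.04 to -0.71. CPM values are counts scaled to library size multiplied by the TMM factor, so they carry the composition correction. The hepatocyte markers were strongly detected, with at least 3805031 counts of Alb in each library. Their summed CPM was 128000 to 132000 in ethanol against 70600 to 81600 in control livers, and 2 of 10 were called higher. The size of that gap depends on the TMM scaling. For the hepatocyte markers Asgr1 and Hnf4a, the log2 fold change was 0.70 and 0.69 with TMM. It was 0.03 and 0.02 with library size alone. Neutrophil markers summed to 2.12 to 12.1 CPM in ethanol livers, highest in ethanol replicate 3, against 0.118 to 0.401 in controls, and all 4 that were tested were called higher. The 7 Kupffer cell markers gave no call, with sums of 78.1 to 108 against 111 to 121 CPM. Of 6 endothelial markers 1 (Lyve1) was called higher and 2 (Kdr and Oit3) lower, with sums of 70.5 to 129 against 85.5 to 99.9 CPM. The highest sum was that of ethanol replicate 3, where Lyve1 read 69.3 CPM. Of 5 cholangiocyte markers Sox9 alone was called, higher (log2 fold change 2.78), with sums of 57.6 to 75 against 31.7 to 73.1 CPM. The 6 stellate cell markers gave no call, with sums of 133 to 164 against 114 to 127 CPM. Of the adipocyte markers Adipoq stayed at or below 12 counts and Lep at or below 4, while Cidec was called higher (log2 fold change 6.15). The part of these shifts in the values of the 8 members was not tested, and in bulk liver fewer cells of a type and less RNA per cell cannot be told apart.

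All 8 members had higher TMM-scaled CPM in each ethanol liver than in any control liver, although Itih1 was lower in ethanol with library size alone. Of the 8, 6 were called higher, against 10.4% of all genes tested. Orm3 differed most, about 60.2-fold, followed by Itih3 and Orm1 at 4.15-fold and 4.11-fold. Orm2, Itih2 and Ambp lay between 3.25-fold and 2.11-fold, Itih4 at 1.92-fold and Itih1 at 1.22-fold, the last pair without a call. Over all tested genes, 28% had all ethanol libraries above all controls and 31% below. Since the members were chosen on this contrast, nothing is read from their share.

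**Figure D1:**
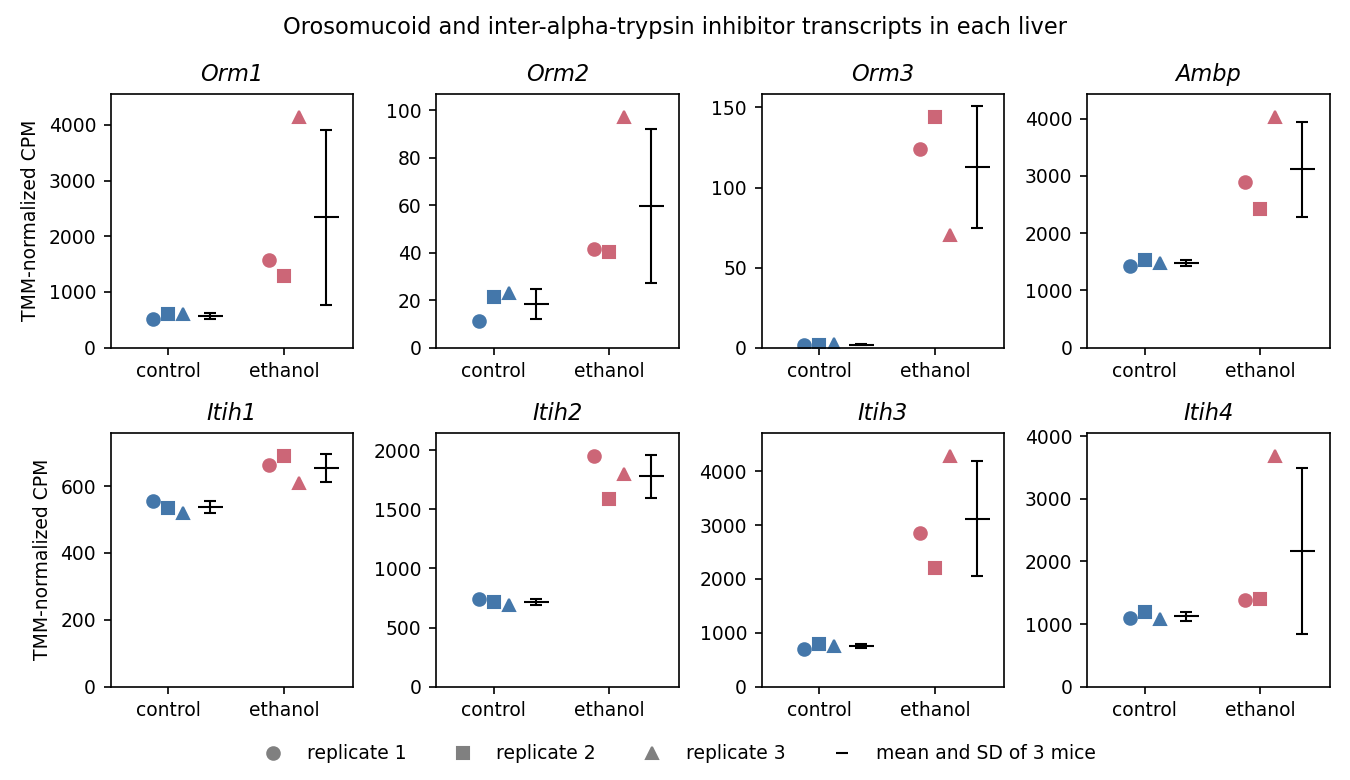
TMM-normalized CPM of the 8 genes in each liver, with 1 point per mouse (circle, square and triangle for replicates 1, 2 and 3) and the mean and SD of 3 mice beside them; each panel has its own linear axis from 0. All ethanol points lie above the control points on this scale (Itih1 turns with library size alone), and replicate 3 of the ethanol group is the highest for Orm1, Orm2, Itih3, Itih4 and Ambp and the lowest ethanol mouse for Orm3 and Itih1.

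Orm1 (ENSMUSG00000039196) was the dominant orosomucoid transcript. The deposited table places it on the plus strand of chromosome 4, from 63262797 to 63266400, with Orm3 (63274399 to 63277748) and Orm2 (63280686 to 63284115) on the same strand. The table's genome build is not established, because its starts lie at constant distances from those of the build the submitters' notes name. Orm1 read 1572, 1293 and 4147 CPM in the 3 ethanol livers and 510.2, 598.4 and 597.7 CPM in the 3 controls. The groups did not overlap, and ethanol replicate 3 alone stood far above the other ethanol mice. The log2 fold change was 2.04 with a standard error of 0.43, and 1.34 with a standard error of 0.13 when ethanol replicate 3 was left out. On the deposited FPKM scale, which divides by transcript length and library size, the mean level of Orm1 was 2200 ± 1420 in ethanol and 865 ± 74.9 in control livers (SD, n = 3). Those levels ranked 52nd and 80th of all genes.

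Orm2 (ENSMUSG00000061540) was far below Orm1 per length in both groups. Its CPM values were 41.63, 40.31 and 97.41 in ethanol against 11.14, 21.21 and 22.87 in control livers. The order of the mice matched Orm1 in that ethanol replicate 3 was highest and control replicate 1 lowest, and the groups did not overlap. The log2 fold change was 1.70 ± 0.42 (SE), 1.16 ± 0.27 without ethanol replicate 3, and 1.44 without control replicate 1, where the call was lost. In FPKM, Orm2 averaged 56.5 ± 29.1 in ethanol and 28.0 ± 9.59 in control livers (SD, n = 3).

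Orm3 (ENSMUSG00000028359) was almost silent in control liver. The raw counts were 171, 108 and 196 in controls and 7137, 8825 and 3856 in ethanol livers, or 1.822, 1.417 and 2.38 CPM against 124, 144.3 and 70.66 CPM. Unlike Orm1 and Orm2, Orm3 was lowest in ethanol replicate 3 among the ethanol mice, and even that library lay far above the controls. The log2 fold change was 5.91 ± 0.35 (SE), the 72nd highest of the 16717 genes tested. By mean FPKM, Orm3 moved from rank 6720 of all genes in controls (2.85 ± 0.739) to rank 380 in ethanol livers (109 ± 40.5; SD, n = 3).

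Because the 3 genes are close copies, the stretches where they differ decide how far their reads can be told apart. In the GENCODE M21 transcripts (GRCm38), the coding sequences of Orm1 and Orm2 were 89.9% identical, those of Orm1 and Orm3 86.0% and those of Orm2 and Orm3 87.9%. The longest run of identical bases was 141 between Orm1 and Orm2, 65 between Orm1 and Orm3 and 75 between Orm2 and Orm3. No pair shared a coding window of 150 bases, the length of 1 read. At 50 bases, 20.4% of the windows of Orm1 recurred in Orm2 and 2.20% in Orm3. How reads that fit several genes were counted is not given in the sources used here, so the split between Orm1 and Orm2 is the less certain one. The most divergent coding stretch of 60 bases is shown with that of Gm11212, an unprocessed pseudogene that lies between Orm1 and Orm3. Capitals mark bases unlike Orm1, and 31 of the 60 columns hold a difference.
Orm1: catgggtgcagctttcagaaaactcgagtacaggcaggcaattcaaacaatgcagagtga
Orm2: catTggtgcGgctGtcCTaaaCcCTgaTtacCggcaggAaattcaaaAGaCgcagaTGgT
Orm3: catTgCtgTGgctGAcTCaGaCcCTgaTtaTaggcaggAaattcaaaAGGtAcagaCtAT
Gm11212: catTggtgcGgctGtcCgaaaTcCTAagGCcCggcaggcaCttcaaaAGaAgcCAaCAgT
The windows start at base 138 of the Orm1 and Orm2 coding sequences and of the Gm11212 transcript, and at base 135 of the Orm3 coding sequence, each counted from its first base. Orm2 differed from Orm1 at 17 of these bases, Orm3 at 22 and Gm11212 at 20.

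Ratios within a library do not depend on how libraries are scaled, and they set Orm3 apart from its copies. In FPKM, the ratio of Orm3 to Orm1 was 0.0791, 0.112 and 0.0171 in ethanol livers against 0.00356, 0.00236 and 0.00399 in controls. The ethanol ratios were all higher, by 4.05 on the log2 scale between the means of the groups, with the smallest in replicate 3. The ratio of Orm2 to Orm1 was 0.0265, 0.0312 and 0.0235 in ethanol and 0.0218, 0.0354 and 0.0382 in control livers, so the groups overlapped. Orm1 supplied 95.9% to 97.5% of summed orosomucoid FPKM in controls and 87.5% to 96.1% in ethanol livers. Orm3 supplied 0.227% to 0.383% in controls and 7.16%, 9.79% and 1.64% in the ethanol mice. With the counts of the 3 genes summed, so that no split between copies enters, CPM was 1737, 1478 and 4315 in ethanol and 523.2, 621 and 623 in control livers, a log2 fold change of 2.09 ± 0.40 (SE), and 1.46 without ethanol replicate 3.

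The pseudogene Gm11212, which sits 2247 bases past Orm1 and 2315 bases before Orm3 on the same strand, had 1275, 1294 and 249 counts in ethanol livers and 0, 13 and 2 counts in controls. It was the neighbour with the highest fold change (log2 fold change 8.00 ± 1.05 SE, adjusted p = 0.00136, edgeR), a value that control counts this low leave imprecise. As with Orm3, ethanol replicate 3 was the lowest of the 3 ethanol mice. Its transcript was closer in sequence to Orm1 (82.9% identity) and Orm2 (82.7%) than to Orm3 (79.8%). Its longest identical run was 56 bases with Orm2, 40 with Orm1 and 32 with Orm3. On either side of the cluster, Col27a1, a collagen gene, and Akna, a gene for an AT-hook protein, differed by 0.14 and 0.11 on the log2 scale, with adjusted p of 0.62 and 0.749.

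**Figure D2:**
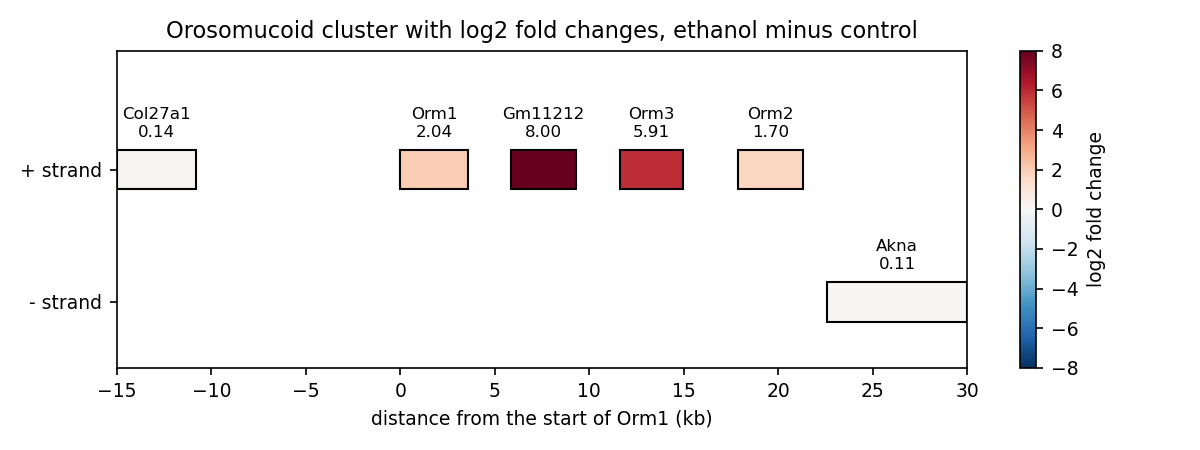
The orosomucoid cluster drawn to scale by distance from the start of Orm1, with plus strand genes above and minus strand genes below; colour and printed number give the log2 fold change of ethanol over control, and Col27a1 and Akna run past the edges of the plot. The pseudogene Gm11212 (8.00) and Orm3 (5.91) exceed Orm1 (2.04) and Orm2 (1.70), and the flanking genes are at 0.14 and 0.11.

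The promoters of Orm3 and Orm2 are shown because these neighbouring copies were at such different levels in control livers and had such different fold changes. RefSeq sequence (GRCm38.p6) gave the 250 bases before the start for 7 of the 8 members, with no entry for Orm1. The stretches chr4:63355908-63356157 for Orm3 and chr4:63362199-63362448 for Orm2, both on the plus strand, were 85.5% identical, in 218 of 255 aligned columns. Capitals mark bases that are not alike in the aligned pair.
Orm3: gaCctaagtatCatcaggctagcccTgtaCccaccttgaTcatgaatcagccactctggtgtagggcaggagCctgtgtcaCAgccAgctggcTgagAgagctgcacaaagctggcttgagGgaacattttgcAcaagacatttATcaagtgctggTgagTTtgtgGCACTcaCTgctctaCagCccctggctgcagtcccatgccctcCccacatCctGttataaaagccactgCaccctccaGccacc
Orm2: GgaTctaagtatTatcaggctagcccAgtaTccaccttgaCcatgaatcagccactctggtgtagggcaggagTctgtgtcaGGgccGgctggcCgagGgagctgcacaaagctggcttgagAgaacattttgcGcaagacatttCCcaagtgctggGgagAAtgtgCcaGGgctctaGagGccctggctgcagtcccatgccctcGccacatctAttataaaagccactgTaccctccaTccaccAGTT
The letters TATAAA, searched on the sense strand alone, occurred at -29 to -24 in Orm3 and -33 to -28 in Orm2, counted from the start, and in 7.59% of 32851 RefSeq promoters of the same length. The C/EBP letters TTNNGNAA, searched on both strands, occurred at -121 to -114 in Orm3 and at -120 to -113 and -108 to -101 in Orm2. They were found in 4 of the 7 member promoters, Itih1 and Itih2 being the others, and in 36.8% of all promoters. The STAT letters TTCNNNGAA occurred in Itih4 alone (-51 to -43), against 7.02% of all promoters. The glucocorticoid receptor letters AGAACA occurred in Orm2, Itih2 and Ambp, against 16.1%. The motifs were chosen after the promoters had been seen, some of the matches overlap, and a match describes letters and not a site in use.

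The heavy chain genes differed in the size of their fold changes, from 4.15-fold for Itih3 and 2.49-fold for Itih2 to 1.92-fold for Itih4 and 1.22-fold for Itih1. With library size alone, Itih1 was lower in ethanol livers. Per length, Itih3 made up more of the heavy chain pool in each ethanol liver than in any control. Itih3 and Itih1 lie side by side on the minus strand of chromosome 14 (30630529 to 30645717 and 30651137 to 30665246) with Itih4 on the plus strand (30608433 to 30624310), and Itih2 lies on the minus strand of chromosome 2 (10099404 to 10135886). Their coding sequences were 51.1% to 62.6% identical and shared no window of 50 bases, so no coding stretch of that length was common to any pair.

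Itih3 (ENSMUSG00000006522), the heavy chain of pre-alpha-inhibitor, read 2859, 2208 and 4292 CPM in ethanol livers and 705, 786.7 and 761.4 CPM in controls. Every ethanol mouse lay well above the controls, with replicate 3 the highest. The log2 fold change was 2.05 ± 0.24 (SE), and 1.76 ± 0.13 without ethanol replicate 3. In FPKM it averaged 630 ± 193 in ethanol and 243 ± 13 in control livers (SD, n = 3).

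Itih2 (ENSMUSG00000037254) encodes a heavy chain of inter-alpha-trypsin inhibitor itself. Its CPM was 1954, 1588 and 1796 in ethanol against 740.3, 719.7 and 687.1 in control livers, a log2 fold change of 1.31 ± 0.12 (SE). The groups were far apart, and ethanol replicate 3 fell between the other ethanol mice. Leaving that mouse out gave 1.32 ± 0.11.

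Itih1 (ENSMUSG00000006529) encodes the partner heavy chain in the same complex. Its CPM was 663.4, 691 and 608.9 in ethanol and 556, 533.5 and 520 in control livers, a log2 fold change of 0.29 ± 0.10 (SE). In FPKM, which carries no correction for composition, the order turned, with 146, 163.7 and 132.6 in ethanol below 199.8, 190.9 and 185.8 in controls. With library size alone the log2 fold change was -0.38, so the direction of Itih1 rests on the scaling. Its neighbour Itih3 kept its direction and its call under all alternatives tried.

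Itih4 (ENSMUSG00000021922), whose product is a substrate of plasma kallikrein and an acute-phase protein in several species, was split within the ethanol group. It read 1380, 1407 and 3689 CPM in ethanol livers against 1095, 1198 and 1073 CPM in controls. Replicates 1 and 2 lay only slightly above the controls, and replicate 3 stood far apart. The log2 fold change was 0.94 ± 0.38 (SE), and 0.32 ± 0.09 without ethanol replicate 3, with no call in either case. In FPKM the groups overlapped, at 271.1, 297.5 and 716.8 in ethanol and 351, 382.5 and 342.2 in control livers.

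Within each library the FPKM ratio of Itih3 to Itih1 was 3.90, 2.89 and 6.38 in ethanol livers against 1.15, 1.33 and 1.33 in controls, a difference of 1.72 on the log2 scale. The ratio of Itih2 to Itih1 was 2.93, 2.28 and 2.93 against 1.32, 1.34 and 1.31, a difference of 1.02. Neither ratio overlapped between the groups, and the control ratios varied little. The ratio of Itih4 to Itih1 did overlap, at 1.86, 1.82 and 5.41 against 1.76, 2 and 1.84. In control livers Itih4 was the most abundant heavy chain transcript per length (33.6% to 35.3% of summed FPKM) and Itih1 the least (17.6% to 19.1%). In ethanol livers Itih3 took the first place, with 36.2% to 40.6% against 22.0% to 24.2% in controls, and Itih1 supplied 6.36% to 12.5%. Itih2 supplied 30.2%, 28.6% and 18.6% of the pool in the ethanol mice and 23.6% to 25.3% in controls, which overlapped. Summed over the 4 genes, CPM was 6857, 5894 and 10390 in ethanol and 3096, 3238 and 3042 in control livers, a log2 fold change of 1.30 ± 0.22 (SE).

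**Figure D3:**
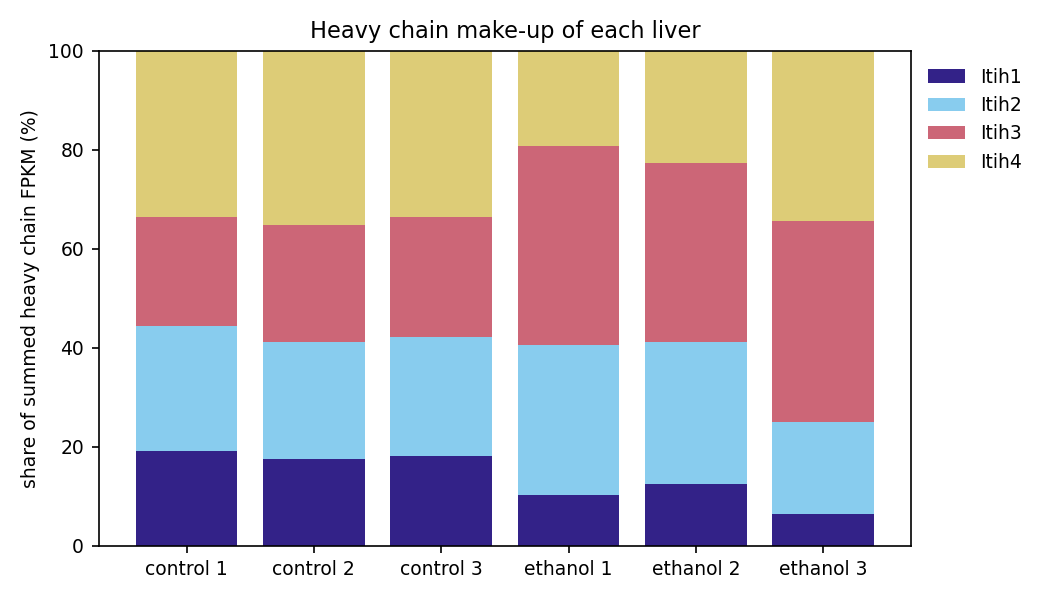
Share of each heavy chain gene in the summed heavy chain FPKM (percent, stacked to 100) in each of the 6 livers. The Itih3 segment spans 36.2% to 40.6% in ethanol against 22.0% to 24.2% in control livers, and the Itih1 segment is narrower in each ethanol liver than in any control.

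Ambp (ENSMUSG00000028356; chromosome 4, 63061512 to 63073036, minus strand) lies at lower coordinates than the orosomucoid cluster and encodes the bikunin that the heavy chains are joined to. It read 2886, 2429 and 4037 CPM in ethanol livers against 1430, 1534 and 1474 CPM in controls. The groups did not overlap, and ethanol replicate 3 was again the highest. The log2 fold change was 1.08 ± 0.19 (SE), just past the threshold, and 0.86 ± 0.11 without ethanol replicate 3, short of it. Ambp was among the most abundant liver transcripts per length in both groups, with mean FPKM of 1630 ± 376 and 1240 ± 41.6 (SD, n = 3) and ranks of 61 and 59.

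Set against Ambp within each library, the heavy chains differed in direction. The FPKM ratio of Itih3 to Ambp was 0.384, 0.352 and 0.412 in ethanol livers against 0.191, 0.199 and 0.200 in controls, 0.96 higher on the log2 scale. That of Itih1 to Ambp was 0.0983, 0.122 and 0.0645 against 0.166, 0.149 and 0.151, lower by 0.76 (log2 difference -0.76). The groups were separate for both ratios, in opposite directions. The ratios of Itih2 and of Itih4 to Ambp overlapped between the groups. Orm1, expressed below Ambp per length in the controls (ratios 0.649, 0.709 and 0.737), reached ratios of 0.990, 0.968 and 1.87 in ethanol livers.

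Because ethanol and control libraries differed in composition, the size of each fold change depended on the scaling. Without the correction, all 8 log2 fold changes were lower, at 1.35 for Orm1, 1.02 for Orm2, 5.26 for Orm3, 1.37 for Itih3, 0.64 for Itih2, 0.26 for Itih4, 0.40 for Ambp and -0.38 for Itih1. Under that scaling 3 members (Orm1, Orm3 and Itih3) were called higher, against 5.06% of all genes, and Orm2, Itih2 and Ambp lost their calls. On the FPKM scale, 6 members had all ethanol livers above all controls, Itih4 overlapped and Itih1 was lower in ethanol. On that scale 9.45% of all tested genes had all ethanol livers above all controls and 57.4% had them below.

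**Figure D4:**
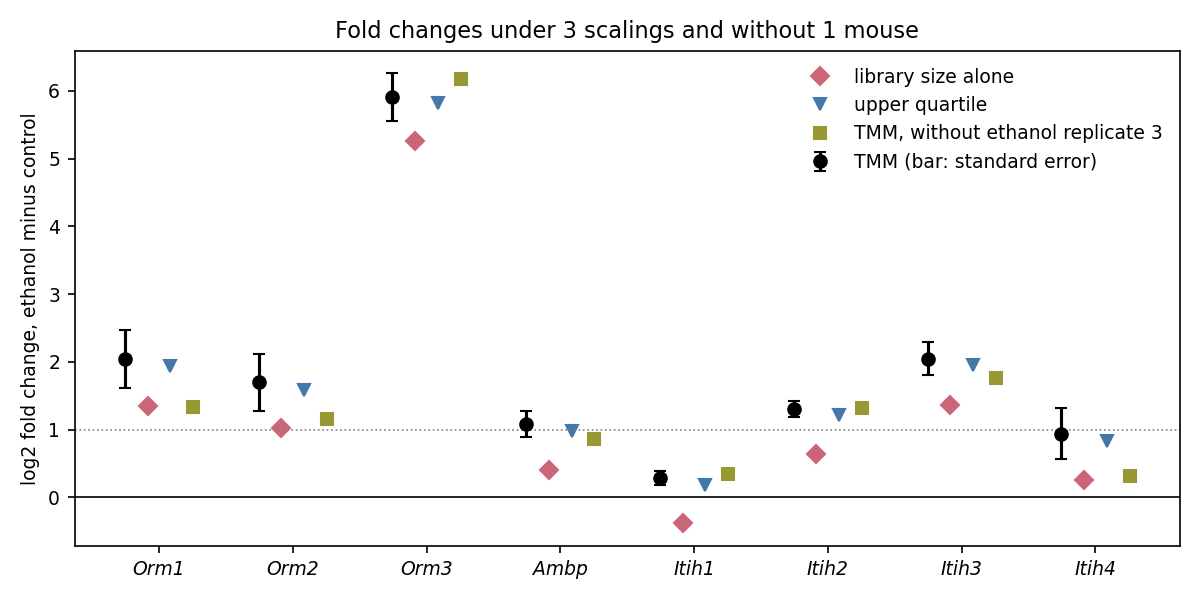
Log2 fold changes of ethanol over control for the 8 genes with TMM scaling (black circles, bars show the standard error), library size alone, upper quartile scaling, and TMM scaling without ethanol replicate 3. The dotted line marks the threshold of 1 and library size alone gives a lower value than TMM for each gene, down to -0.38 for Itih1.

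The ethanol mice differed among themselves, and the members fell into groups by how replicate 3 compared with the others. On the log2 CPM scale, replicate 3 minus the mean of replicates 1 and 2 was 1.54 for Orm1, 1.40 for Itih4, 1.24 for Orm2, 0.77 for Itih3 and 0.61 for Ambp. The same quantity was 0.03 for Itih2, -0.15 for Itih1 and -0.92 for Orm3, while its median over 7015 genes with a mean of at least 10 CPM was -0.04. Orm1, Itih4 and Orm2 stood at percentiles 99.1, 98.7 and 98.1 of those genes and Orm3 at percentile 5.7. The SD of log2 CPM within the ethanol group was 0.90 for Orm1, 0.81 for Itih4 and 0.72 for Orm2, against 0.09 for Itih1 and a median of 0.20 over the same genes. In controls the SD of Orm1 was 0.13 and that of Itih4 0.08. That of Orm2 was 0.55 in controls (percentile 98.9), so its wide spread was not confined to the ethanol group. Among the ethanol mice, replicate 3 also had the highest sums of neutrophil (12.1 CPM) and endothelial (129 CPM) markers. Lyve1 made up 69.3 CPM of that endothelial sum, against 24.2 and 33.3 CPM in replicates 1 and 2. The same mouse had the lowest sums of stellate cell (133 CPM), cholangiocyte (57.6 CPM) and adipocyte (40 CPM) markers. The adipocyte sum was mostly Cidec, at a mean of 66.9 CPM in ethanol livers against 0.656 CPM for Cfd. The adipocyte sum in ethanol livers thus rests largely on Cidec. The endothelial sum rests to a large part on Lyve1 in replicate 3, and less so in the other livers. The part of the marker sums in the spread of the members was not tested.

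**Figure D5:**
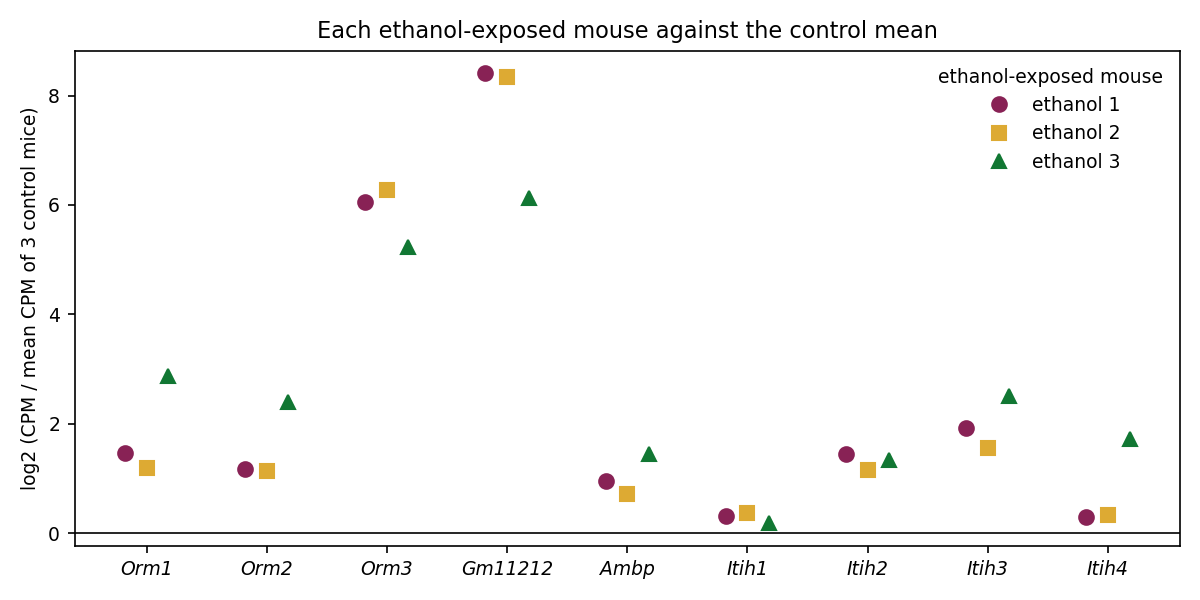
Log2 ratio of CPM in each ethanol-exposed mouse to the mean CPM of the 3 control mice, for the 8 genes and the pseudogene Gm11212; the line at 0 is the control mean. Replicate 3 is at 2.87 for Orm1 where the other mice are at 1.47 and 1.19, and at 5.24 for Orm3 where they are at 6.05 and 6.27.

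Across the 6 livers, likeness between genes was measured as the SD of the log2 ratio of their counts. A low value means parallel levels. Among the members, Itih2 and Ambp were the closest pair (0.26), then Orm1 with Itih3 (0.30) and Orm1 with Orm2 (0.33), and Orm3 lay at 2.23 to 3.09 from the others. Candidates were the 7007 other genes with a mean of at least 10 CPM. Of these, the nearest to Orm1 were Il17ra, the receptor subunit for interleukin-17 (0.06), Snx10 (0.10) and Rce1 (0.20). Itih4 was nearest to Prg4, the gene for lubricin (0.10), Lbp, the gene for lipopolysaccharide binding protein (0.14), and Gm8883 (0.15). Fgb, the fibrinogen beta chain gene, was among the nearest to Itih3 (0.13), with Tbl1xr1 (0.10) and Ptpn2 (0.12). The nearest candidates to Orm3 were Tiparp, a target of the aryl hydrocarbon receptor, at 0.31, then Arid5a at 0.47 and Map3k6 at 0.52. No candidate gene tracked Orm3 as closely as the nearest ones tracked Orm1. The nearest to Orm2 (Rarres1, Fabp4 and Fam222a) lay at 0.23 to 0.26. For Itih1 (Tbcel, Pgk1 and Senp6) they lay at 0.02, for Itih2 (Dlgap4, Cox7a2l and Rbpms) at 0.05 to 0.06 and for Ambp (Mvp, Wfdc21 and Kpna2) at 0.06. These values describe 6 livers that share the ethanol contrast and carry no test.

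Several genes of the signalling that is known to induce orosomucoids were higher in the ethanol livers. Of 18 tested, 8 were called higher and 1 lower, against 10.4% and 13.8% of all genes. Their median log2 fold change was 0.84, against -0.04 over all genes. This list and the gene lists that follow were chosen with earlier results of these data known. Nothing is therefore read from their shares of calls or their medians, and the adjusted p-values describe single genes. The interleukin-1 receptor gene Il1r1 rose by 4.93 on the log2 scale (adjusted p = 5.53e-05), the feedback inhibitor Socs3 by 4.60 (9.88e-05), the transcription factor genes Cebpd and Cebpb by 4.07 (6.79e-05) and 3.30 (6.40e-05), and Stat3 by 2.03 (0.000121). The receptor genes Il6ra (1.43, adjusted p = 0.00223), Osmr (1.42, 0.00139) and Tnfrsf1a (1.29, 0.00203) rose too, but were not called with library size alone. Tyk2, a Janus kinase gene, fell by 1.48 (adjusted p = 0.000374). The order of the ethanol mice differed between these genes, since Cebpb read 775, 773 and 577 CPM and Il6ra 60.6, 51.6 and 90.2 CPM in replicates 1, 2 and 3.

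Genes of the steps that act on the inter-alpha-trypsin inhibitor moved unevenly. Tnfaip6, whose product moves heavy chains onto hyaluronan, rose by 4.77 (adjusted p = 0.0246) from very low levels, at 2, 3.99 and 0.147 CPM in ethanol against 0, 0.0919 and 0.134 CPM in control livers, so ethanol replicate 3 was close to the controls. Of 10 tested genes of hyaluronan synthesis, breakdown and binding, it was 1 of 4 called higher, with the receptor gene Lyve1 (log2 fold change 3.59, adjusted p 0.000692), Hyal3 (2.94, 0.00878) and Cemip2 (1.02, 0.00783), and Cd44 was called lower (-1.02, 0.0255), where 10.4% of all genes were called higher and 13.8% lower. The median of the list was 0.56, where that of all genes was -0.04. It was -0.10 with library size alone (all genes -0.71). Without ethanol replicate 3 it was -0.02 (all genes -0.08), but over more genes. Hmmr (-6.74) and Vcan (-1.46) were tested in that fit and not in the main one, so -0.02 is not comparable with 0.56. Cemip2 lost its call under both settings (0.35 and 0.82). The 5 calls fell to 2 without control replicate 2 and to 3 without ethanol replicate 1 or control replicate 3. Of the endothelial markers, to which Lyve1 also belongs, Kdr (-1.57, 0.00598) and Oit3 (-1.30, 0.00137) were called lower. Of 20 chondroitin sulfate assembly genes tested, the kinase gene Fam20b (1.16, 0.00377) and Chpf (1.40, 0.0153) were called higher and the linker galactosyltransferase gene B3galt6 lower (-1.17, 0.0383). Over all genes 24.2% were called either way, and the list's 3 calls became 6 without ethanol replicate 3 and 1 without control replicate 1 or 3, so nothing particular to the list is read from them. The median of the list was 0.36, against -0.04 over all genes. With library size alone it was -0.31, against -0.71 over all genes, with 0 called higher and 5 lower where 32.2% of all genes were called lower.

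Orosomucoids leave the cell with complex N-glycans, and 3 of the 19 N-glycan genes tested were called higher with 1 lower, at a median of 0.16. That number of calls is close to the 24.2% of all genes called either way, so nothing particular to the list is read from it. The sialyltransferase gene St3gal4 rose by 1.80 (adjusted p = 0.000245), the galactosyltransferase gene B4galt1 by 1.76 (0.000954) and the mannosidase gene Man2a1 by 1.08 (0.00216), which was not called with library size alone or without ethanol replicate 3 (0.98). The sialyltransferase gene St6gal1 fell by 1.05 (0.00151). Under library size alone the median of the list was -0.51, against -0.71 over all genes, with 2 called higher and 3 lower.

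Among other genes of the lipocalin and heavy chain families, 2 of 6 tested were called higher and 1 lower, against 10.4% and 13.8% of all genes. Lcn2, the gene for neutrophil gelatinase-associated lipocalin, read 49.7, 36.4 and 2650 CPM in ethanol livers and 2.70, 6.59 and 7.87 CPM in controls. Ethanol replicate 3, highest for Orm1 and Itih4, was also far the highest for Lcn2, and the log2 fold change of 7.32 (adjusted p = 0.0188) became 2.92 (adjusted p = 0.00067) without it. Rbp4, the retinol carrier gene, rose by 1.13 (0.000693) but was not called with library size alone, and Ptgds fell by 1.59 (0.00476). Itih5, beside Itih2 on chromosome 2, was at 0.08 (adjusted p = 0.656).

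Within 100 kb of the members, 25 other genes were listed and none overlapped a member. Of the 18 tested, 3 were called higher and 3 lower, against 24.2% of all genes called either way. The log2 fold changes that follow have their adjusted p in parentheses. Kin, which lies 1786 bases from Itih2, rose by 1.54 (0.000301), and Whrn, beyond Orm2, by 1.33 (0.0201), and neither was called with library size alone. Next to Itih1, Nek4 fell by 1.55 (0.00396), and Pbrm1 and Glt8d1 further on fell by 1.19 (0.0112) and 1.13 (0.0115). Pbrm1 was at -0.92 without ethanol replicate 3, short of the threshold. Beside Itih4, Mustn1 was at -0.29 (0.746), and beside Ambp, Zfp618 was at -0.55 (0.237) and Kif12 at -1.83 (0.173). Mustn1 was called lower without ethanol replicate 3 (-1.35, 0.0473), and Zfp618 with library size alone (-1.22, 0.0229).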

How the data were processed

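For each gene the authors deposited a whole-number read count that was not normalized, and beside it an FPKM value scaled to transcript length and library size. The authors state that low-quality reads were removed before alignment. The aligner, the counting tool and the use of strand are not given in the sources used here, and the submitters' processing notes name GRCm38 and mm10. A further 1 column of counts matches no library and was not used. Gene names, types, coordinates and strands were taken from the table as deposited, and its pathway annotation was not used. The members and all gene lists were chosen with earlier results of these data known.

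Counts were tested with edgeR 4.0.16 in R 4.3.3 (quasi-likelihood test, filterByExpr, TMM scaling, no covariates), with Benjamini-Hochberg adjustment over 16717 genes, calling genes below an adjusted p of 0.05 whose log2 fold change exceeded 1 either way. The common biological coefficient of variation was 0.299. The edgeR, DESeq2 and limma fits were tested on simulated data, and the other steps were not. Totals of 60514417 to 74210869 counts leave counting error small beside the spread of 3 mice per group. Alternatives were DESeq2 1.42.0, limma 3.58.1 on log2(FPKM + 1) and log2(FPKM + 0.1), 3 further scalings, no filter, no fold threshold, a replicate block, and leaving out each library. Transcripts came from GENCODE M21 and were aligned with MAFFT 7.526, and promoters from RefSeq. Genes named were the 8 members, all called genes of each list, neighbours within 100 kb that were called or nearest, and the 3 genes nearest in likeness.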

Additional observations from a re-analysis of the deposited data

How the results depend on the processing

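Orm1, Orm3 and Itih3 kept their direction and call under all 14 alternatives, with log2 fold changes of 1.17 to 2.32, 4.78 to 6.17 and 1.33 to 2.25. Itih1 reversed to -0.38 with library size alone and to -0.38 and -0.39 with limma on log2(FPKM + 1) and log2(FPKM + 0.1), which carry no composition correction. Itih4 ranged from 0.11 to 1.18 without a call. Members called higher fell from 6 to 3 under each of those 3 settings, and the summed heavy chains to 0.63, 0.58 and 0.58, below the threshold. Ambp also lost its call at 0.98 with upper quartile scaling.

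Genes called higher numbered 846 with library size alone, 408 and 745 with limma at pseudocounts 1 and 0.1, and 3598 with no fold threshold; genes called lower numbered 5385 with library size alone, 5026 with limma at 0.1 and 3591 with no fold threshold. In the same order of settings, calls among chondroitin sulfate genes numbered 5, 5 (limma at 0.1) and 8 instead of 3. With no fold threshold there were 8 calls among N-glycan genes instead of 4, 10 among neighbours instead of 6 and 5 among other lipocalins instead of 3. With limma at 1 there were 3 among neighbours and 1 among other lipocalins, and limma at 1 and 0.1 gave 1 and 3 among hyaluronan genes instead of 5.

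Leaving out 1 library at a time gave 5 to 6 members called, 2 to 4 hyaluronan genes (2 without control replicate 2), 1 to 6 chondroitin sulfate genes (6 without ethanol replicate 3, 1 without control replicate 1 or 3) and 2 to 5 N-glycan genes (2 without control replicate 1). The replicate numbers showed no sign of pairing the mice. Deviations of same-numbered libraries correlated at -0.04, -0.03 and -0.01, and not every library correlated best with its own number. Such correlations cannot establish that the mice were unpaired. With a replicate block, hyaluronan calls numbered 3, and the other counts and the summed values stayed within 1.5 times or on the same side of the threshold. Depth limits genes with 0 counts in some libraries, such as Gm11212, Tnfaip6, Kif12 and the neutrophil markers S100a8, Retnlg and Cxcr2, and 3 mice per group limit the precision throughout.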
